A study of Mus musculus with 48 samples.

Results

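The comparison described here set liver RNA of Wfs1 knockout (KO) mice against that of wild type (WT) mice when both had received valproate (VPA). Its members were the 8 WT and 8 KO samples whose titles carried VPA, 16 of the 48 samples of the series, and the difference was taken as KO minus WT across all 35556 probesets of the array. Each sample was the liver of 1 male mouse on 1 array. Both groups had received VPA at 300 mg/kg/day by intraperitoneal injection for 12 weeks, from an age of 4 to 6 weeks. All mice underwent a glucose tolerance test (glucose at 2 g/kg) 24 hours after the last injection and were killed 24 hours later, at an age of 16 to 18 weeks, so that VPA had last been given 48 hours before death. The KO mice (Wfs1 -/-) carried Wfs1 with some of its exons invalidated while the others were left in place, and the strain is not given in the sources used here. The remaining samples were heterozygous (HZ) mice given VPA and WT, HZ and KO mice given saline at 10 mL/kg, 8 in each group. The saline WT and KO mice are set beside the VPA mice below, and the 2 comparisons share no mouse. The hour of killing is not given in the sources used here.

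Wfs1 encodes wolframin, which sits in the membrane of the endoplasmic reticulum (ER), takes part in calcium handling and restrains ER stress, and its loss in humans causes Wolfram syndrome with diabetes. VPA is an anticonvulsant and mood stabiliser, a branched fatty acid that inhibits class I histone deacetylases and is metabolised by mitochondrial fatty acid oxidation in the liver. Mouse liver expresses many genes at different levels in males and females because the pituitary releases growth hormone in pulses in males and more evenly in females. It also holds a circadian clock, in which CLOCK and BMAL1 (Arntl) activate the Per, Cry and Nr1d genes, whose products in turn repress CLOCK and BMAL1 or their genes.

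At an adjusted p under 0.05 (limma, Benjamini-Hochberg adjustment over all probesets), 144 of 35556 probesets passed in KO against WT mice given VPA, or 0.405%. KO values were higher at 68 probesets (0.191%) and lower at 76 (0.214%), and the change exceeded 2-fold at 34, of which 19 were higher and 15 lower. The probesets that passed named 114 genes. With 1 probeset per gene, the one with the highest mean, 109 of 19938 genes passed (0.547%), 56 higher (0.281%) and 53 lower (0.266%), and these shares are the background for the gene lists below. An unadjusted p under 0.05 was reached by 2812 of the 35556 probesets (7.91%) and by 1741 of the 19938 genes (8.73%), and the latter is the share against which the counts of unadjusted p in the lists are to be read. Among the genes that passed, the strongest rises were those of Cyp2b13, Cyp2a22, Slc22a26, Slc22a27 and Abhd1. The strongest falls among them were those of Elovl3, Serpina4-ps1, Nat8f5, Cyp7b1 and C6. All values are on the log2 scale, where a difference of 1 is a 2-fold change, and a difference is followed by its standard error (SE).

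The 16 arrays were alike as a whole. Pearson correlations between them across probesets ran from 0.976 to 0.992, and their medians from 6.91 to 7.00. Albumin (Alb) lay between 14.38 and 14.52 in all 16 mice, the Y-linked Kdm5d between 8.15 and 8.79, and Xist, the RNA of the inactive X chromosome, between 4.85 and 5.55 in livers that the labels give as male. The mice of a group did not respond alike. Among the 144 probesets, the KO mouse furthest from the WT mean was replicate 4 at 47 (32.6%) and replicate 5 at 40 (27.8%), against 18.4% and 11.2% of all probesets, while replicate 1 was furthest at 1 probeset (0.694%). With both of these KO mice left out, an alternative chosen after their values were seen, 38 probesets passed, 36 of them among the 144. The SD of the KO mice exceeded that of the WT mice at 97 of the 144 probesets (67.4%), against 46.1% of all.

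Wfs1 itself (chr5:36966104-36988982, GRCm38) did not pass. Its level ran from 7.94 to 8.98 in WT mice (median 8.50) and from 8.01 to 8.67 in KO mice (median 8.28), so the groups overlapped. The difference was -0.14 (SE 0.10, adjusted p = 0.846 from limma) and the two-sided exact permutation test gave p = 0.309 (n = 8 each). The probeset summarises the whole gene, including the exons that the knockout leaves in place, and is no check of the deletion.

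Several genes of the circadian clock differed between KO and WT mice given VPA. Of 11 measured repressors of the clock, 4 rose and 1 fell with a list median of 0.66, and of 7 activators and output factors 2 rose and 1 fell with a list median of 0.04. The median over all probesets was 0.00. Per3, a period protein that takes part in the repressor complex, had values of 6.66, 7.05 and 7.35 (lowest, median and highest) in WT mice and of 7.50, 8.80 and 9.52 in KO mice. It rose by 1.58 (SE 0.24, adjusted p = 0.000375 from limma), or 2.98-fold, and no KO mouse overlapped the WT mice. Dbp, a PAR bZIP transcription factor driven directly by CLOCK and BMAL1, lay at 6.87, 7.66 and 8.25 in WT and at 8.51, 9.21 and 10.31 in KO mice. It rose by 1.73 (SE 0.29, adjusted p = 0.000956), again without overlap.

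Further repressors and an output factor rose as well. Nr1d2, which encodes the nuclear receptor REV-ERB beta, lay at 9.17, 9.59 and 9.85 in WT and at 9.96, 10.28 and 10.56 in KO mice, and rose by 0.72 (SE 0.12, adjusted p = 0.000681) without overlap. Cry2, a cryptochrome, rose by 0.53 (SE 0.10, adjusted p = 0.00278), and its lowest KO value (8.83) lay below its highest WT value (8.87). Ciart, a repressor of CLOCK and BMAL1, rose by 1.77 at the probeset with the higher mean (SE 0.41, adjusted p = 0.0329), a call that ended when any of 8 of the 16 mice was left out (adjusted p up to 0.113). The second Ciart probeset differed by 1.15 (SE 0.32) and did not pass (adjusted p = 0.0985). The 10 named probesets nearest in identifier to the one that passed are all of chromosome 10 genes, while those nearest to the second are all of chromosome 3, where Ciart lies, so the one that passed may measure another locus. Without it, 3 repressors rose. Tef, a PAR bZIP factor like Dbp, rose by 0.83 (SE 0.13, adjusted p = 0.000643), from 8.38, 8.69 and 9.05 in WT to 8.99, 9.79 and 9.86 in KO mice, which overlapped slightly.

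Other members of the clock had lower values in KO mice. Nfil3, a bZIP repressor that opposes the PAR bZIP factors and peaks at the other end of the day, lay at 8.65, 9.02 and 9.34 in WT and at 8.00, 8.17 and 8.56 in KO mice. It fell by 0.76 (SE 0.13, adjusted p = 0.00133 from limma) without overlap. Clock, which encodes the activator, fell by 0.51 (SE 0.10, adjusted p = 0.00444), and its lowest WT mouse (9.82) lay below its highest KO mouse (9.94). Its partner Arntl was at 8.73, 9.27 and 9.72 in WT and at 7.18, 8.59 and 9.02 in KO mice, and the difference of -0.90 (SE 0.23, adjusted p = 0.0665) did not pass. Per1, Per2, Nr1d1 and Hlf did not pass either, with differences of 1.31, 0.66, 0.88 and 0.28 and adjusted p of 0.0884, 0.198, 0.303 and 0.308. The calls of Per3, Dbp, Nr1d2, Tef, Cry2, Nfil3 and Clock held without any 1 mouse, and also without KO replicates 4 and 5 (adjusted p from 0.00182 for Nr1d2 to 0.0456 for Clock and Cry2).

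**Figure D1:**
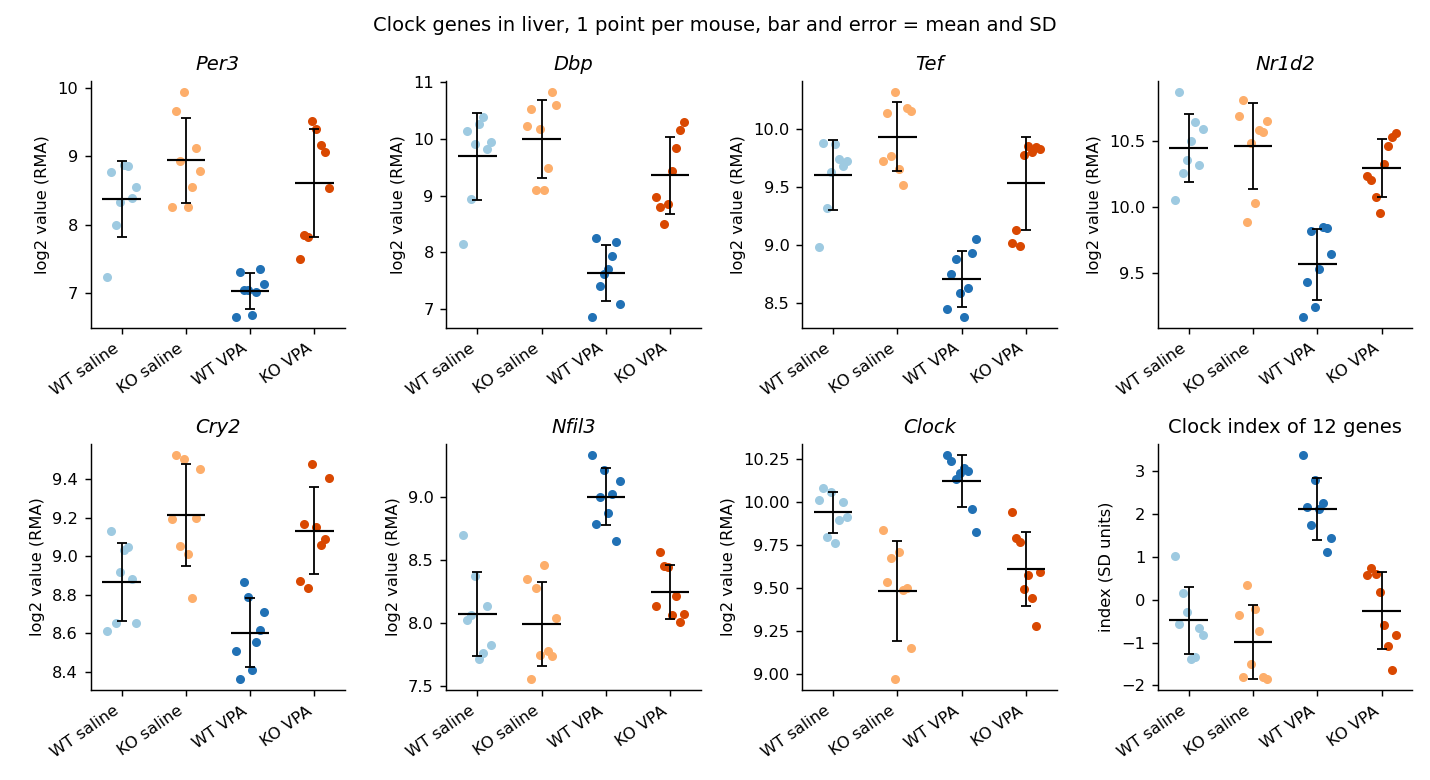
Levels of 7 clock genes (log2 value, vertical axes) and the clock index (SD units) in WT and KO mice given saline or VPA, with 1 point per mouse and bars for mean and SD. WT VPA and KO VPA mice do not overlap for Per3, Dbp, Nr1d2 and Nfil3, where the highest or lowest WT VPA value (7.35, 8.25, 9.85 and 8.65) does not reach the KO VPA mice.

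The promoters of 5 of these genes are shown because the letters that clock factors are known to bind can be read in them. Per3, Tef and Nr1d2 rose and Nfil3 fell, while the Ciart probeset that passed may measure another locus. Each run holds 300 bases, most of them before the transcription start and the last 50 from it onward, on the strand of the gene, from RefSeq on GRCm38.p6. Capitals mark the E-box CACGTG, bound by CLOCK and BMAL1, in Ciart (chr3:95882179-95882478, minus strand) and Tef (chr15:81802423-81802722, plus strand). They mark TTATGNAA, the D-box letters that Dbp, Tef and Nfil3 bind, in Per3 (chr4:151044616-151044915, minus strand). They mark AGGTCA, the core of the elements bound by REV-ERB and ROR receptors, in Nr1d2 (chr14:18239057-18239356, minus strand) and its reverse complement in Nfil3 (chr13:52980990-52981289, minus strand).
Ciart: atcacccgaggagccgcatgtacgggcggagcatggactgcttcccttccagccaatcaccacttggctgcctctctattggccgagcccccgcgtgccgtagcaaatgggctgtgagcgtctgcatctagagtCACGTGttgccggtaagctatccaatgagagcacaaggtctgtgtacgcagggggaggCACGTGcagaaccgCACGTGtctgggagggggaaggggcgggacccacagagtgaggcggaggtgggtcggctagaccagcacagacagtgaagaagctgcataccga
Tef: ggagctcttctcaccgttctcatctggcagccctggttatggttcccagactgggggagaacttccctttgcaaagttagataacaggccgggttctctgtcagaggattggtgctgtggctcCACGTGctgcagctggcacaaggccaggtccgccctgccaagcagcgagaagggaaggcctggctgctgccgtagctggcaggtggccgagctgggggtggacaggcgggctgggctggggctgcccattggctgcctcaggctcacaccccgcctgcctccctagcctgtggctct
Per3: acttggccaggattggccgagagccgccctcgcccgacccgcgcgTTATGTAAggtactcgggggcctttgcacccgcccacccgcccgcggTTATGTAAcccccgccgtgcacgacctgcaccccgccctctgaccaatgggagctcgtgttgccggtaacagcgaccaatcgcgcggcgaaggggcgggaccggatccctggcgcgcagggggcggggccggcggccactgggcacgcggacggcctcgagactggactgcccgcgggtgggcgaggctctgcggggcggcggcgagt
Nr1d2: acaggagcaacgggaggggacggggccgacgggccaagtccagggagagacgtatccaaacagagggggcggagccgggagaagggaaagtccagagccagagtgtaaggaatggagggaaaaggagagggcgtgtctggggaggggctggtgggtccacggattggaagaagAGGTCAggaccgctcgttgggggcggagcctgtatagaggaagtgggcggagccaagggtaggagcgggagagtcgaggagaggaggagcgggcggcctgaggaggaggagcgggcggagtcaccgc
Nfil3: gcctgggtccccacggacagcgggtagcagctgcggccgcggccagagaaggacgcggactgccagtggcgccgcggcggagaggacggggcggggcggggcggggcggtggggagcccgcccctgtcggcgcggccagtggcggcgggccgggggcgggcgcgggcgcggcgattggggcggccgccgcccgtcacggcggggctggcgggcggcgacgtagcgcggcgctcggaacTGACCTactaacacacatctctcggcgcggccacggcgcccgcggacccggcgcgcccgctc

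Ciart held CACGTG at -116, -58 and -44 bases from the start, and Tef held it at -127. It was not found in the windows of Per3, Dbp, Nr1d2 and Cry2, which rose, nor in those of Nfil3 and Clock, which fell. Per3 held TTATGTAA at -205 and -158. Nfil3, which fell, held TGACCT at -12, while Nr1d2, which rose, held AGGTCA at -77. On either strand, CACGTG was present in 5 of the 16 clock genes with a promoter in the reference (31.2%) against 9.50% of 15614 measured genes, and TTATGNAA in 2 (12.5%) against 3.60%. AGGTCA was present in 5 of the clock genes (31.2%) against 16.3% of all. Among genes that passed in VPA mice, it was present in 11 of 45 that rose (24.4%) and in 14 of 43 that fell (32.6%), and CACGTG in 5 (11.1%) and 4 (9.30%). These are counts of letters in a short window and show no binding.

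The index of clock phase combined 12 clock genes, each scaled over the 48 mice, as the mean of Arntl, Clock, Cry1 and Nfil3 less the mean of Per1, Per2, Per3, Nr1d1, Nr1d2, Dbp, Tef and Hlf. It is a description of the same genes and not a separate measurement. It ran from 1.12 to 3.39 in WT mice given VPA (median 2.15) and from -1.65 to 0.73 in KO mice given VPA (median -0.21), without overlap. In saline it ran from -1.37 to 1.02 in WT and from -1.86 to 0.34 in KO mice, which overlapped, and in HZ mice given VPA from 0.88 to 2.62. In HZ mice given saline it ran from -2.87 to -1.41. These did not overlap the WT mice given saline, so the index also separated 2 genotypes without VPA. KO mice given VPA thus lay within the span of the saline WT and KO mice, and WT mice given VPA lay above it. With the index as a covariate, 2 of the 144 probesets passed, those of Abhd1 (difference 2.02) and Piezo2, a mechanosensitive channel (difference 0.65). Since the index did not overlap between WT and KO mice given VPA, the covariate takes up differences of genotype along with those of the clock genes, and they cannot be told apart here. The hour at which each mouse was killed was not given, and its part in these differences was not tested.

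Some clock output genes of the liver passed as well. Of 22 measured, 2 rose and 2 fell (list median 0.08), and the Ciart probeset described above is 1 of those that rose. The falls were those of Ppard and of Elovl3, which is described below among genes of male liver. Rgs16, a rhythmic regulator of G protein signalling in the liver, lay at 7.84, 9.01 and 11.40 in WT and at 10.15, 11.07 and 12.13 in KO mice. It rose by 1.76 (SE 0.40, adjusted p = 0.0234 from limma), the groups overlapped, and the call ended when any of 8 of the 16 mice was left out. Rgs16 also passed in saline mice, with a difference of 1.61 (adjusted p = 0.0318 from limma). Ppard encodes a nuclear receptor for fatty acids. It lay at 8.46, 9.54 and 10.04 in WT and at 8.35, 8.57 and 9.31 in KO mice, so the groups overlapped. It fell by 0.81 (SE 0.15, adjusted p = 0.00324). This call was lost when limma was fitted to the 16 arrays alone, where Ppard had an adjusted p of 0.175. Wee1, a kinase that gates mitosis, Usp2, a rhythmic deubiquitinase, and Nampt, which makes a precursor of NAD, differed by 0.89, 0.87 and 0.22 and did not pass.

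The largest differences lay in genes known to differ between male and female liver. Cyp2a22 and Cyp2b13, cytochromes P450 of female liver, rose in these male KO mice. Cyp2a22 lay at 6.34, 6.62 and 6.97 in WT and at 7.30, 9.28 and 12.30 in KO mice and rose by 3.06 (SE 0.54, adjusted p = 0.00214 from limma), or 8.36-fold, without overlap. Cyp2b13 lay at 4.21, 4.71 and 5.09 in WT, near the lower end of the array's values, and at 4.54, 7.60 and 12.58 in KO mice, where 6 of 8 exceeded every WT mouse. It rose by 3.42 (SE 0.84, adjusted p = 0.0465), and the call ended when any of 12 of the 16 mice was left out (adjusted p up to 0.172). Sult3a1, a sulfotransferase of female liver, differed by 3.66 (SE 0.95) and did not pass (adjusted p = 0.0675), with KO values from 3.47 to 12.02.

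The organic anion transporters Slc22a26 and Slc22a27 lie close together on chromosome 19. Slc22a27 lay at 4.85, 5.36 and 6.09 in WT and at 6.23, 7.52 and 9.57 in KO mice, and rose by 2.44 (SE 0.47, adjusted p = 0.00444 from limma) in 8 of 8 KO mice. Slc22a26 rose by 2.55 (SE 0.60, adjusted p = 0.0333), with 7 of 8 KO mice above every WT mouse, and lost its call without any of 10 of the 16 mice. Slco1a4 and Abcb1a, transporters of organic anions and of drugs, rose by 1.43 (SE 0.22, adjusted p = 0.000364) and 1.07 (SE 0.21, adjusted p = 0.00444). The flavin monooxygenase Fmo2 rose by 1.47 (SE 0.30, adjusted p = 0.00824), Hao2, a peroxisomal oxidase of hydroxy acids, by 1.80 (SE 0.42, adjusted p = 0.0349), and the cytochrome Cyp2c38 by 1.14 (SE 0.24, adjusted p = 0.0105). Of these, Hao2 lost its call without any of 9 of the 16 mice.

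Among the falls, Elovl3, an elongase of very long chain fatty acids and a gene of male liver, was the largest. It lay at 11.64, 12.44 and 13.08 in WT and at 5.62, 9.78 and 11.18 in KO mice and fell by 3.20 (SE 0.57, adjusted p = 0.00224 from limma), 9.19-fold lower without overlap. Cyp7b1, the oxysterol hydroxylase of the alternative bile acid pathway, lay at 11.73, 12.50 and 12.92 in WT and at 9.32, 10.70 and 12.29 in KO mice and fell by 1.76 (SE 0.35, adjusted p = 0.00652). The acetyltransferases Nat8f5 and Nat8, which lie side by side on chromosome 6, fell by 2.27 (SE 0.50, adjusted p = 0.0214) and 1.33 (SE 0.26, adjusted p = 0.00603). Serpina4-ps1, a serpin locus on chromosome 12, fell by 2.49 (SE 0.47, adjusted p = 0.00403), and the melatonin receptor gene Mtnr1a by 1.00 (SE 0.20, adjusted p = 0.00541) without overlap. The call of Nat8f5 ended without WT replicate 2, 3 or 6 or KO replicate 2 or 7 (adjusted p up to 0.0615).

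Of 40 measured genes that the study named for genotype, 13 rose and 7 fell, with 35 at an unadjusted p under 0.05; that list was drawn from these mice together with the saline mice and is no independent evidence. Of 23 further male-biased genes, 4 fell and 1 rose, 20 lay below 0, and the list median was -0.46. C6 and C9, components of the membrane attack complex, fell by 1.69 (SE 0.32, adjusted p = 0.00444 from limma) and 1.10 (SE 0.24, adjusted p = 0.0195), Gstp1, a glutathione transferase, by 0.71 and Ugt2b1, a glucuronosyltransferase, by 0.39, while Inmt, a methyltransferase, rose by 0.52. Of 23 further female-biased genes, 3 rose and none fell in limma (14 at an unadjusted p under 0.05), 20 lay above 0, and the list median was 0.65. Those 3 were Tox, a nuclear HMG box protein, by 0.86, Acot4, an acyl-CoA thioesterase, by 0.93 and Fmo4, a flavin monooxygenase, by 0.68.

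Gstp1 and Fmo4 each lost their calls without most single mice (14 and 13 of 16), Ugt2b1 without 11, Acot4 without WT replicate 4 or KO replicate 4 or 5 (adjusted p up to 0.0733), and C9 without KO replicate 4 or 5 (up to 0.0819). Gstp1 shares much of its sequence with a neighbouring copy, so its value may hold both. Without KO replicates 4 and 5 together, Inmt alone of the further male-biased genes and none of the further female-biased genes passed in limma, and 2 higher and 2 lower of the study's 40 genes did.

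The mice differed widely in these genes. KO replicates 4 and 5 had the highest values of Cyp2b13 (11.54 and 12.58), and KO replicate 1, at 4.54, lay within the WT range. For Elovl3, KO replicates 4 and 5 were lowest at 5.62 and 7.30 and KO replicate 1 was highest at 11.18. Slco1a1, a transporter of male liver that did not pass (difference -1.44, adjusted p = 0.496), was at 5.57 in KO replicate 4 and 9.81 in KO replicate 5, while the other 6 KO mice lay between 12.13 and 12.80 and all WT mice between 12.36 and 12.77. Lepr, the leptin receptor, was at 9.77 and 9.74 in the same mice and between 6.53 and 7.31 in the others, and did not pass (difference 1.23, SE 0.35, adjusted p = 0.127). The clock indices of KO replicates 4 and 5 were 0.18 and -0.59, within the KO range. These mice had the highest KO values of Per3 (9.52 and 9.39), Per1 (9.65 and 9.55), Per2 (9.45 and 9.16) and Hlf (9.80 and 9.57). Other clock genes went otherwise. Dbp was at 8.86 and 9.44 in them, below the highest KO value of 10.31. Nr1d2 was at 9.96, its lowest KO value, in KO replicate 4 and at 10.33 in KO replicate 5. In bulk liver, fewer cells of a type and less RNA per cell cannot be told apart.

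**Figure D2:**
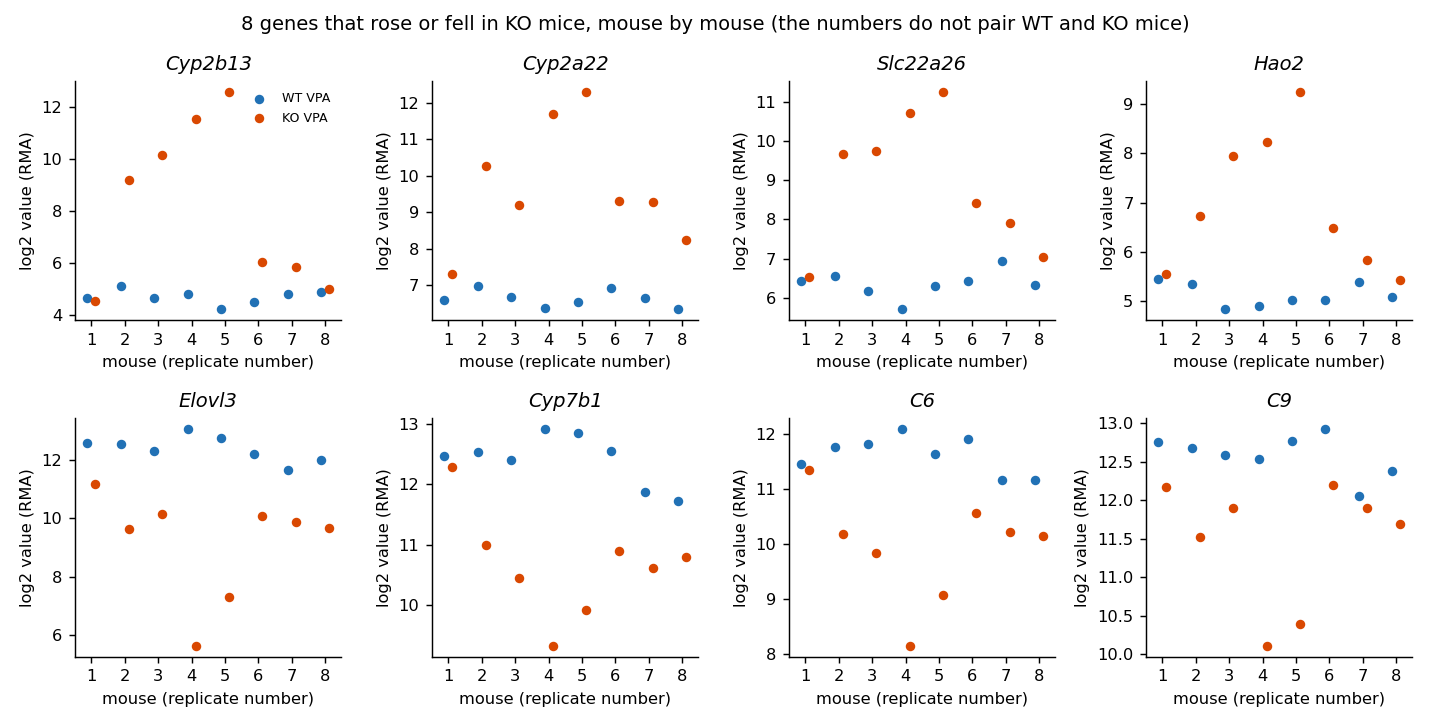
Log2 values (vertical axes) of 8 genes that passed in VPA mice, against the number of the mouse in its group, for WT (blue) and KO (orange) mice given VPA. KO replicates 4 and 5 are the highest for Cyp2b13 (11.54 and 12.58) and the lowest for Elovl3 (5.62 and 7.30). KO replicate 1 is the KO mouse nearest to the WT mice for all but Hao2 and C9.

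The growth hormone axis, which sets much of this sex bias, had 1 call among 18 measured genes. Stat5a, a transcription factor activated by the growth hormone receptor, fell by 0.31 (SE 0.08, adjusted p = 0.0455 from limma), and the call ended without any of 10 of the 16 mice. The differences of all 18 genes lay between -0.31 and 0.42. Egfr, a growth factor receptor with higher levels in male liver, differed by -0.88 and did not pass (adjusted p = 0.0855).

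Genes of lipid and bile acid metabolism came next. Of 33 measured PPAR targets and genes of fatty acid oxidation, 2 rose and 1 fell, with a list median of 0.14. Acot3, a peroxisomal acyl-CoA thioesterase, lay at 6.96, 7.27 and 7.73 in WT and at 7.74, 8.94 and 11.07 in KO mice and rose by 1.93 (SE 0.36, adjusted p = 0.00273 from limma). The 2 groups met without overlapping. Its neighbour Acot4, named above, was the other rise and Ppard the fall. Cpt1a, which controls entry of fatty acids into mitochondria, differed by 0.04 with a 95% interval from -0.21 to 0.28. Of 23 genes of fatty acid and triglyceride synthesis none passed in limma (8 at an unadjusted p under 0.05), 21 lay above 0 and the list median was 0.18.

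Outside these lists, Vldlr, a lipoprotein receptor, rose by 1.16 (SE 0.27, adjusted p = 0.0311 from limma), a call that ended without any of 7 of the 16 mice, and Klb, the coreceptor for FGF21 and FGF15, by 0.52 (SE 0.10, adjusted p = 0.00278). Idh2, the mitochondrial isocitrate dehydrogenase, lay at 10.14, 10.48 and 10.60 in WT and at 10.79, 10.98 and 11.26 in KO mice and rose by 0.57 (SE 0.09, adjusted p = 0.000421) without overlap. Of 19 genes of bile acid synthesis and transport, Cyp7b1 alone passed and fell. Cyp7a1, the rate-limiting enzyme of the classical pathway, differed by -0.15 with a 95% interval from -0.67 to 0.37. None of 19 cholesterol genes passed in limma, with 1 at an unadjusted p under 0.05.

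Dio1, the deiodinase that activates thyroid hormone, lay at 8.63, 9.60 and 10.41 in WT and at 5.71, 8.57 and 9.49 in KO mice. It fell by 1.56 (SE 0.38, adjusted p = 0.0465 from limma), and the call ended without any of 11 of the 16 mice. Serpina6, the corticosteroid-binding globulin, rose by 0.53 (SE 0.09, adjusted p = 0.0015), from a median of 12.96 in WT to 13.47 in KO mice, the ranges meeting at 13.28. Gstt2, a glutathione transferase, rose by 0.82 (SE 0.13, adjusted p = 0.000441) without overlap, and Sult1a1, a phenol sulfotransferase, by 0.58 (SE 0.11, adjusted p = 0.00273).

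ER and glucose genes, the processes in which wolframin is known to act, showed no call. None of 30 genes of the unfolded protein response and ER chaperones passed in limma, with 3 at an unadjusted p under 0.05, 25 below 0 and a list median of -0.10. Hspa5, the chaperone BiP, differed by -0.15 with a 95% interval from -0.36 to 0.06, and Herpud1 and Trib3, targets of ER stress, by 0.39 and 0.27 (adjusted p = 0.328 and 0.277). Of 13 genes of ER calcium handling none passed in limma and none had an unadjusted p under 0.05, with differences from -0.14 to 0.11. Of 14 insulin signalling genes none passed, with 1 at an unadjusted p under 0.05. Of 21 genes of glucose and glycogen metabolism none passed, with 9 at an unadjusted p under 0.05 and 17 above 0. G6pc, the last enzyme of glucose release, differed by -0.53 (adjusted p = 0.174), and Slc2a2, the glucose transporter of hepatocytes, by 0.29 (adjusted p = 0.0548).

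Genes tied to VPA and to stress also had few calls, though some of these lists exceeded the 8.73% of all genes at an unadjusted p under 0.05. None of 11 histone deacetylase genes passed in limma (1 at an unadjusted p under 0.05), with differences from -0.20 to 0.07. Of 22 targets of the xenobiotic receptors CAR and PXR none passed, with 8 at an unadjusted p under 0.05, 19 above 0 and a list median of 0.15. No gene passed in the lists of acute phase genes, heat shock, DNA replication, p53 targets, immediate early genes and the urea cycle. They held 24, 16, 24, 16, 18 and 8 genes, with 7, 2, 2, 4, 2 and 2 at an unadjusted p under 0.05. Mt1, a metallothionein that binds zinc, lay at 8.58, 8.69 and 10.06 in WT and at 9.35, 10.60 and 11.26 in KO mice and rose by 1.51 (SE 0.37, adjusted p = 0.0465), but the call ended without any of 14 of the 16 mice. Mt2, next to it on chromosome 8, differed by 1.84 (SE 0.54) and did not pass (adjusted p = 0.142).

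Interferon-stimulated genes, which respond to viral RNA and to interferon, had lower values in KO mice. Of 20 interferon-stimulated genes all lay below 0, with a list median of -0.32, 11 at an unadjusted p under 0.05 and 1 past the test. That gene, Oasl1, a regulator of the interferon response, lay at 8.30, 9.21 and 9.69 in WT and at 8.10, 8.30 and 8.91 in KO mice and fell by 0.72 (SE 0.14, adjusted p = 0.00561 from limma). Its adjusted p was 0.118 in the fit on the 16 arrays and 0.0921 without KO replicates 4 and 5. Oasl1 lies on chromosome 5, 77.96 Mb beyond Wfs1, in a stretch described below. Irf7, the factor that drives interferon genes, differed by -0.60 and did not pass (adjusted p = 0.127). Of 11 genes of terminal complement, C6 and C9 fell and the list median was -0.17.

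Among markers of the cell types that liver tissue can hold, 11 of 13 lists had no call. The 11 hepatocyte markers differed by -0.04 to 0.08, and their mean level lay between 13.79 and 13.94 in KO and between 13.82 and 13.93 in WT mice. The mean level of 13 Kupffer cell markers lay between 8.62 and 9.24 in KO and between 7.97 and 9.43 in WT mice, with a list median difference of -0.13, while that of 14 lymphocyte markers lay between 5.95 and 6.18 and between 6.04 and 6.25. One lymphocyte marker passed, the coreceptor Cd4, which fell by 0.39 (SE 0.09, adjusted p = 0.0161 from limma) and lost its call without WT replicate 4 or 5 (up to 0.0607). Of 9 markers of periportal hepatocytes, Hsd17b13, a lipid droplet enzyme, and Uox, urate oxidase, rose by 0.38 and 0.27, Uox with a call that ended without any of 10 of the 16 mice. None of 13 pericentral markers had an unadjusted p under 0.05 or passed in limma.

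**Figure D3:**
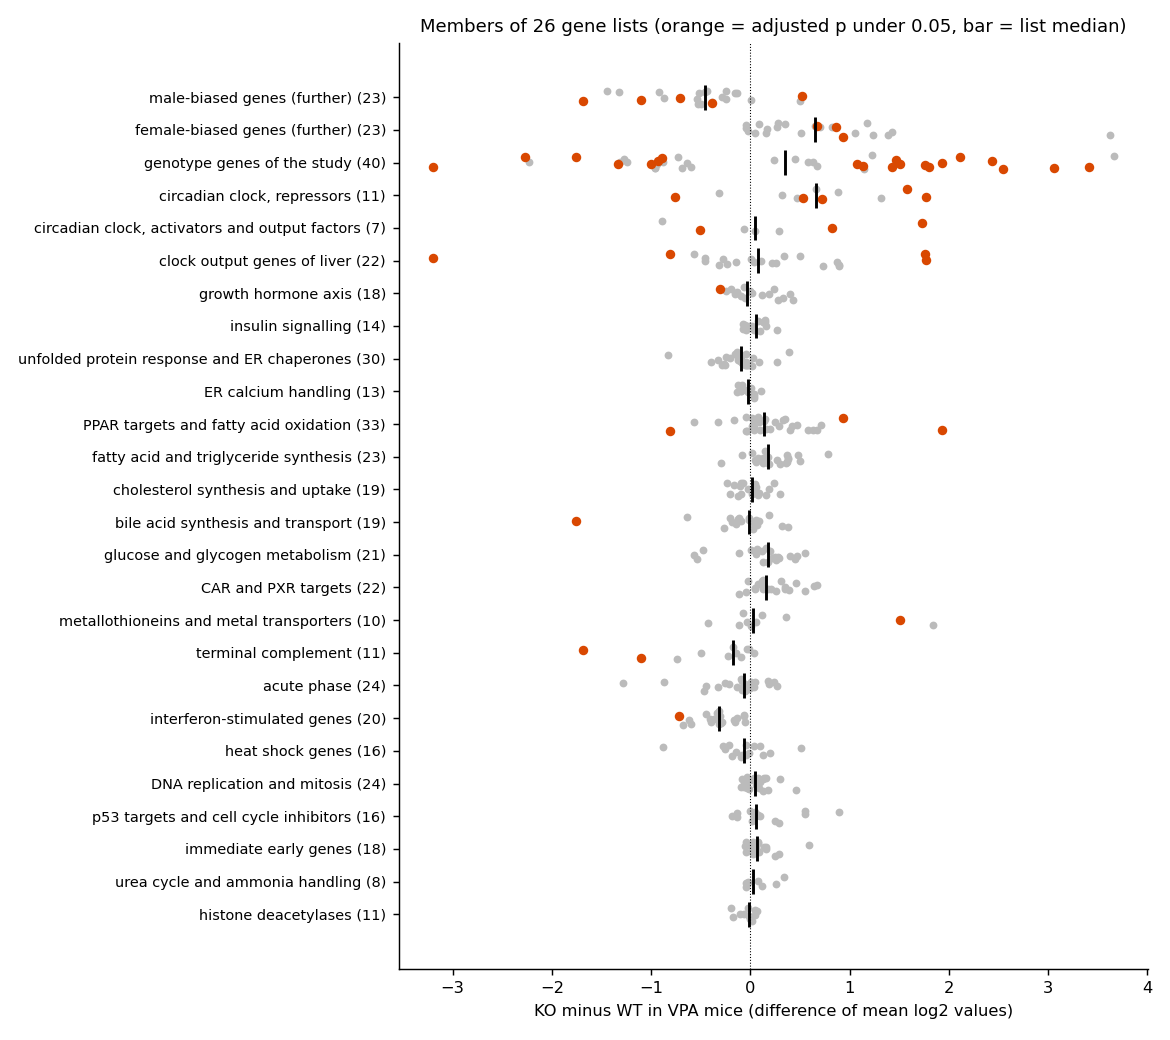
Difference of KO minus WT mice given VPA (log2, horizontal axis) for each measured member of 26 gene lists, with orange for an adjusted p under 0.05 and a black bar at each list's median, the number measured in brackets. Clock repressors (median 0.66) and female-biased genes (0.65) lie to the right, male-biased (-0.46) and interferon-stimulated genes (-0.32) to the left, and the ER and deacetylase lists lie near 0.

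Wfs1 lies on chromosome 5, and that chromosome held 19 of the 109 genes that passed. This was 1.67% of its 1140 measured genes, against 0.481% of the 18716 genes on the other chromosomes, with 9 higher and 10 lower. Chromosome 19 came close, with 10 of 675 genes (1.48%). In saline mice its share was 2.22%, against 2.19% on chromosome 5. All but 1 of the chromosome 5 genes that passed lay between 40 Mb before and 80 Mb beyond Wfs1, in a stretch of 713 genes (2.52%). Within 10 Mb of Wfs1, 4 of 174 genes passed (2.30%), all of them before it. None of 44 genes from 0 to 10 Mb beyond Wfs1 passed, and none of 23 from 10 to 20 Mb. At 20 to 40 Mb beyond it, 6 of 91 passed (6.59%). Sequence that flanks the altered locus differs between the genotypes where it comes from the strain of the targeted cells, and its effects and those of the lost protein cannot be told apart in this design.

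Abhd1 (chr5:30950066-30955095), which encodes a hydrolase and lies 6.02 Mb before Wfs1, had the smallest p of all. It lay at 8.49, 8.94 and 9.07 in WT and at 10.61, 10.97 and 11.38 in KO mice and rose by 2.11 (SE 0.16, adjusted p = 1.41e-12 from limma), 4.32-fold, in 8 of 8 KO mice. Its neighbour Atraid, at 5.92 Mb before Wfs1, fell by 0.22 (SE 0.05, adjusted p = 0.0227). Spon2, a secreted matrix protein at 3.75 Mb before Wfs1, lay at 8.40, 8.70 and 8.93 in WT and at 7.04, 7.46 and 8.09 in KO mice and fell by 1.21 (SE 0.14, adjusted p = 7.75e-07) without overlap. Nelfa, a subunit of the complex that pauses RNA polymerase II, fell by 0.39 (SE 0.08, adjusted p = 0.0178). Atraid lost its call without WT replicate 4 or 5 or KO replicate 3, 5 or 7 (up to 0.0661) and Nelfa without WT replicate 3 or 4 or KO replicate 6 (up to 0.0599).

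Further along the chromosome, Lnx1, a ubiquitin ligase, and Atp10d, a phospholipid flippase, were 0.96 higher (SE 0.16, adjusted p = 0.00104 from limma) and 0.90 higher (SE 0.15, adjusted p = 0.00062). Sparcl1, a matrix protein, rose by 0.85 (SE 0.14, adjusted p = 0.00104), and Fras1, an extracellular matrix protein, fell by 0.91 (SE 0.16, adjusted p = 0.0015). Kit, the stem cell factor receptor, fell by 0.66 (SE 0.15, adjusted p = 0.0311), losing its call without any of 9 of the 16 mice. Clock, described above, lies in the same stretch, 39.2 Mb beyond Wfs1. So do Klb (28.38 Mb beyond), Ugt2b1 (49.95 Mb), Hsd17b13 (66.99 Mb) and Oasl1 (77.96 Mb), which were named above under other lists. Abcb1a, also named above, lies 28.4 Mb before Wfs1.

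**Figure D4:**
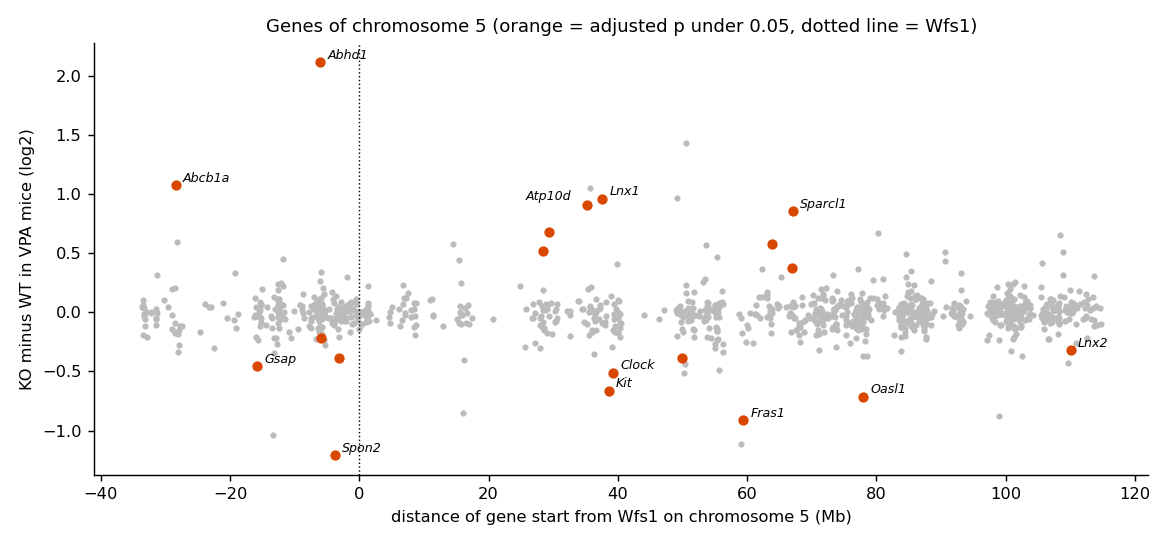
Difference of KO minus WT mice given VPA (log2, vertical axis) for 1140 genes of chromosome 5 against their distance from Wfs1 (Mb, horizontal axis), with orange for an adjusted p under 0.05. Abhd1 (2.11) and Spon2 (-1.21) stand out within 10 Mb, and 6 genes passed between 20 and 40 Mb beyond Wfs1.

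Beside the saline mice, most differences kept their direction. In saline, 281 probesets passed (0.79%), and 58 passed in both treatments, all in the same direction, which is 40.3% of the VPA calls and 20.6% of the saline calls. Of the 144 probesets, 140 had the same sign in saline. The difference was smaller in saline at 117, with a median size of 0.42 against 0.63 in VPA, but the probesets had been chosen by their values in VPA mice. No probeset passed for the difference between the treatments in limma, with 974 at an unadjusted p under 0.05, of which 36 were among the 144.

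Several of the largest differences were of similar size in both treatments. Abhd1 differed by 2.26 in saline and 2.11 in VPA mice (difference between treatments -0.15, unadjusted p = 0.516 from limma), and Cyp2a22 by 2.64 and 3.06 (0.43, unadjusted p = 0.582). Elovl3 differed by -4.10 and -3.20 (0.90, unadjusted p = 0.274). Several clock genes had larger differences in VPA mice, none of them past adjustment. Dbp differed by 0.31 in saline and 1.73 in VPA mice (unadjusted p = 0.00112), Nr1d2 by 0.01 and 0.72 (unadjusted p = 0.000106, adjusted p = 0.966), and Nfil3 by -0.08 and -0.76 (unadjusted p = 0.000603). Clock was an exception, at -0.46 and -0.51, and passed in both treatments. Cry2 differed by 0.35 and 0.53 (unadjusted p = 0.201 from limma for the difference between treatments).

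The smallest p for a difference between treatments was that of Ppard, at 0.11 in saline and -0.81 in VPA mice (unadjusted p = 9.52e-05, adjusted p = 0.966 from limma). Piezo2 differed by 0.15 and 0.56 (unadjusted p = 0.00126) and Gstt2 by 0.24 and 0.82 (unadjusted p = 0.00269). Lepr, in the opposite sense, differed by 2.28 in saline and 1.23 in VPA mice (unadjusted p = 0.0395). Praf2, Tlcd3a, Aldoc, Olfr624 and Cyp2j9, also among the 10 genes with the smallest p here, did not pass in VPA mice (adjusted p from 0.153 to 0.988). None of these passed after adjustment over all probesets.

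**Figure D5:**
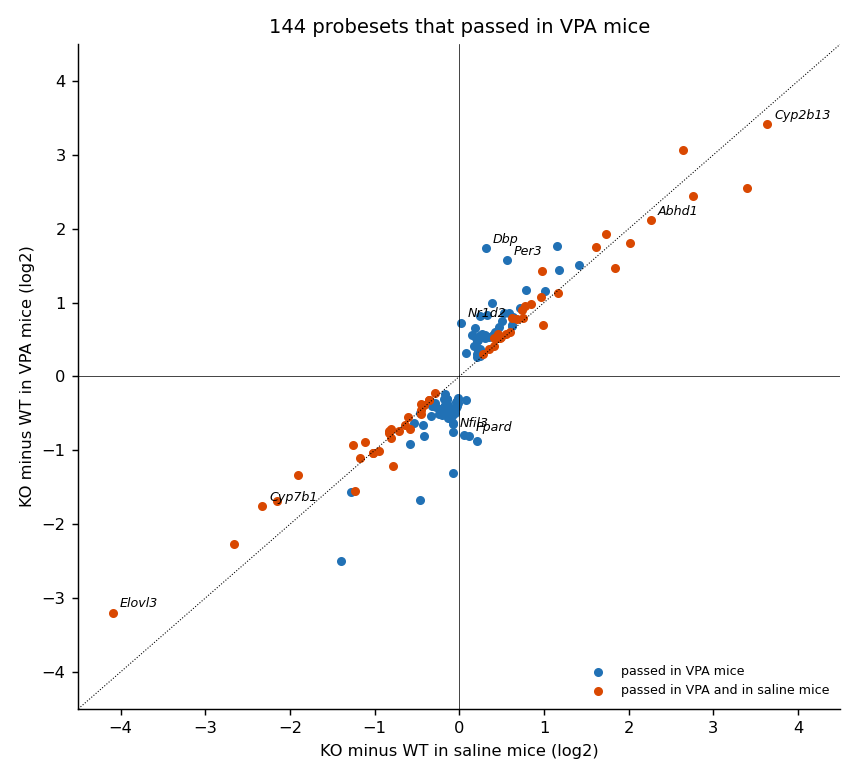
Difference of KO minus WT in VPA mice (log2, vertical axis) against that in saline mice (log2, horizontal axis) for the 144 probesets that passed in VPA mice, with orange for those that passed in both and the dotted line at equal values. Points keep to the lower left and upper right, with 4 on the other side, and Dbp and Per3 lie above the line (0.31 and 0.56 in saline, 1.73 and 1.58 in VPA mice).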

How the data were processed

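Total liver RNA, with an integrity number of 7 to 9 per the labels, was hybridised to Affymetrix Mouse Gene 1.0 ST arrays. The deposited values are log2 expression values, which the authors made with RMA (Affymetrix Expression Console, version 1.1.2800.28061, per the submitters' processing notes). RMA corrects background, forces a common distribution on all arrays and summarises probes, so a shift of all genes cannot be seen. No array was left out or renormalised, and the number of arrays limits the precision.

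Groups came from the sample labels. limma 3.58.1 in R 4.3.3 fitted 6 group means over all 48 arrays (42 residual degrees of freedom), after the two-way design of the study. Contrasts were KO minus WT within VPA, the same within saline, and their difference. P-values were two-sided and adjusted by Benjamini-Hochberg over 35556 probesets, and intervals are 95% intervals of the same fit. Single genes could be compared over all 12870 splits of the 16 mice (smallest exact p = 0.000155). On simulated data for KO minus WT in VPA mice over 35556 probesets, 71% of changes of 0.5 and 97% of changes of 1 were recovered. For the difference between treatments, 44% of changes of 0.5 and 89% of changes of 1 were recovered. These shares do not carry over to every gene, since Sult3a1, with a difference of 3.66 (SE 0.95) in VPA mice, did not pass. For the difference between treatments, Dbp at 1.42 (SE 0.41) and Per3 at 1.01 (SE 0.34) did not pass either. The simulation gave each probeset the same spread in every group, while the KO SD was the larger at 67.4% of the 144 probesets. The labels do not say that mice of the same replicate number were paired. Of 8 same-numbered WT and KO pairs given VPA, 3 correlated by over 0.1 (highest 0.286, mean 0.049 against -0.007 for other pairs). The main fit took no account of the number, and what it stands for was not tested.

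Of the probesets, 21789 carried 1 symbol, 1621 several and 12146 none. Positions are those of GRCm38. Of 671 list members 595 were measured, in 26 pathway lists and 13 lists of cell types, each gene by its probeset with the highest mean. The clock index used 12 genes, since Npas2 had no probeset of its own. Cyp4a12a, which is male-biased and in the study's own genotype list, was counted in the latter only.

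Genes were named by rule: Wfs1, the 12 largest rises and 12 largest falls past the adjusted p, the 10 smallest p for the difference between treatments, list members past the adjusted p, genes near Wfs1 and Ppard, Lepr, Sult3a1 and Fmo2. Others were named after their values were seen, among them Idh2, Klb, Piezo2, Serpina6, Vldlr, Gstt2, Sult1a1, Mt2, Slco1a1 and the genes given as not passing. The members and lists were chosen with earlier results of these data known. A few genes of the rule are not reported here.

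Alternatives were fits on the 16 or 32 arrays of the groups, array weights, a trend with robust estimation, median centring, only probesets with 1 symbol or a group mean of at least 5, a single probeset for each gene, a block for the replicate number, the clock index as a covariate, other thresholds and leaving out each of the 16 mice. Leaving out KO replicates 4 and 5 together was added after seeing the data. Promoters are those of RefSeq for GRCm38.p6, and figures were drawn with matplotlib 3.10.9.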

Additional observations from a re-analysis of the deposited data

Results flagged for a closer look

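Single mice stood apart from the other 7 of their group at 12 of 182 groups of values examined, and chance alone sets apart about 1 in 20 such groups. WT replicate 8 had the highest WT values of Mt1 (10.06), Per1 (8.65) and Herpud1 (12.58), and WT replicate 1 the highest of Acot4 (9.93) and the lowest of G6pc (12.67). WT replicate 2 was lowest for Slco1a4 (8.61) and WT replicate 7 lowest for Gsap (9.69), a chromosome 5 gene that encodes the gamma-secretase activating protein. KO replicate 4 was highest for Atp10d (8.79) and for Aldoc (9.70), a glycolytic aldolase, and lowest for Slco1a1 (5.57). KO replicate 1 was lowest for Cyp2b9 (5.32), a female-biased cytochrome, and KO replicate 8 highest for Trib3 (7.94).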

How the results depend on the processing

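In VPA mice the count of 144 probesets depended on the fit. It was 63 (41 higher, 22 lower) on the 16 arrays of the 2 groups, with 57 shared, 64 on the 32 arrays of WT and KO mice, 60 at an adjusted p under 0.01, 44 (24 higher, 20 lower) past 2-fold at an unadjusted p under 0.001, 38 without KO replicates 4 and 5 (chosen after seeing the data), and 2 with the clock index as a covariate. Array weights gave 201, and the others of the fit, filter and centring alternatives 111 to 166. Leaving out 1 mouse gave 75 to 217. The count was 75 without KO replicate 4, 80 without KO replicate 5, 83 without WT replicate 4, 85 without WT replicate 2 and 88 without WT replicate 5. It was 207 without WT replicate 7 and 217 without KO replicate 1. The causes were not tested. With the replicate number as a block, 195 probesets passed, 137 of them among the 144, and the labels do not say what the numbers stand for.

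In saline mice, 281 probesets became 112 on the 32 arrays, 169 with array weights, 85 at an adjusted p under 0.01 and 66 at the unadjusted threshold, with 266 to 317 when a VPA mouse was left out. The difference between treatments gave 0 to 1 in limma when 1 mouse was left out (1 without WT replicate 7, against 974 at an unadjusted p under 0.05 over all mice), 2 at the unadjusted threshold, and 0 with the replicate block.

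Ciart turned to -0.13 with the clock index as a covariate, an index of which Ciart is no part. Of the 98 probesets examined by name, the 16-array fit ended 29 calls and the covariate 62, and a trend with robust estimation ended none.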

Other observations

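Cyp2b9 had the widest spread of the genes examined by name in WT mice. It lay at 5.78, 8.24 and 11.12 (lowest, median and highest) in WT and at 5.32, 12.90 and 13.81 in KO mice given VPA. The difference of 3.62 (SE 1.29) did not pass (adjusted p = 0.316 from limma), although 6 KO mice lay above every WT mouse. In KO mice given saline, it lay at 5.20 and 5.39 in 2 mice and between 12.20 and 13.63 in the others.

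Serpina12, a serpin with higher levels in male liver, was at 6.67, 7.74 and 9.09 in WT and at 5.48, 6.59 and 7.35 in KO mice given VPA, and its difference of -1.32 (SE 0.38) did not pass (adjusted p = 0.122). Dusp6, a phosphatase of the ERK pathway, rose by 0.74 (SE 0.15, adjusted p = 0.00605 from limma). Mat1a, which makes S-adenosylmethionine in hepatocytes, rose by 0.26 (SE 0.05, adjusted p = 0.0111), from a median of 13.49 in WT to 13.74 in KO mice. Tsc22d1, a transcriptional regulator, fell by 0.83 (SE 0.17, adjusted p = 0.0108), and its adjusted p was 0.0511 without KO replicate 4.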
